A study of Mus musculus with 8 samples.

Results

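The endoplasmic reticulum (ER) chaperones and the unfolded protein response were described here as 34 genes, chosen by symbol as chaperones, disulfide isomerases, and genes of translocation, degradation and stress sensing. All 34 were among the 15210 genes of the deposited table. 33 of them were tested, and the remaining gene, Derl3, was below the minimum level. RNA came from livers of female F1-TKm30 mice, 4 of them controls that received no MOCA and 4 given 4,4'-methylenebis(2-chlorobenzenamine) (MOCA), a chlorinated aromatic amine from polyurethane manufacture. The dose was 0.05% and treatment lasted 4 weeks, by a route that the sources used here do not state. Ages were 17 or 21 weeks, without a label for which mouse had which. Both groups carried the same transgene, a mutant herpes simplex virus thymidine kinase (clone 30) driven by the mouse transthyretin enhancer and promoter, on the NOG background, which lacks T, B and NK cells. Each mouse gave 1 library.

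Proteins that hepatocytes secrete or place in membranes enter the ER through a protein channel, are folded there by chaperones and disulfide isomerases, and are sent back to the cytosol for degradation when they do not fold. In the unfolded protein response, the membrane proteins IRE1 (Ern1), ATF6 (Atf6) and PERK (Eif2ak3) sense unfolded protein. IRE1 splices the Xbp1 mRNA, ATF6 is cut to release a transcription factor, and PERK slows translation; XBP1 and ATF6 then raise transcription of many chaperone and degradation genes. The liver, which makes most plasma proteins, depends on this machinery.

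Promoters of several of these genes are known for the ER stress element, which is bound by ATF6 and XBP1 together with NF-Y, the factor that binds CCAAT. RefSeq promoter windows of the GRCm38.p6 assembly (mm10), from 250 bases before to 50 bases after a gene's start, were matched by symbol to 27 of the 34 members, with 28 windows because Derl2 had 2. Sec61a1, Hyou1, Derl1, Ssr2, Hspa13, Atf6 and Manf were not matched. The windows below show genes to which the results return. Hspa5, Creld2 and Syvn1 stood high in 1 MOCA mouse, Herpud1 spread widely among MOCA mice, and the groups of Pdia6 did not overlap. Capitals mark the letters CCAAT and CCACG of the ER stress element, or CGTGG and ATTGG where it lies on the other strand, and in Herpud1 the letters ATTGG and CCACG of its second form. All windows run 5′ to 3′ on the plus strand, at chr2:34771840-34772139 (Hspa5), chr15:88819396-88819695 (Creld2), chr19:6046326-6046625 (Syvn1), chr8:94386179-94386478 (Herpud1) and chr12:17266339-17266638 (Pdia6).
Hspa5: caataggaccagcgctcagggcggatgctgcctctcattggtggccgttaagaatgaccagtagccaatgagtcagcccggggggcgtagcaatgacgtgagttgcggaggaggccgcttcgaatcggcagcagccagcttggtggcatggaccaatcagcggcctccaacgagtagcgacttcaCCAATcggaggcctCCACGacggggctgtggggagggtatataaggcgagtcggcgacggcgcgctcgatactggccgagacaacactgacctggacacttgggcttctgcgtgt
Creld2: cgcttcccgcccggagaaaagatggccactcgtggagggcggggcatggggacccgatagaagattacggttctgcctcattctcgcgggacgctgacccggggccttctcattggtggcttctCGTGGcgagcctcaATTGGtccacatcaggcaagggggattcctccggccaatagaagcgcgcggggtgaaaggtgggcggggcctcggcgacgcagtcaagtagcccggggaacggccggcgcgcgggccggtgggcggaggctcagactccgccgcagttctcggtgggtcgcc
Syvn1: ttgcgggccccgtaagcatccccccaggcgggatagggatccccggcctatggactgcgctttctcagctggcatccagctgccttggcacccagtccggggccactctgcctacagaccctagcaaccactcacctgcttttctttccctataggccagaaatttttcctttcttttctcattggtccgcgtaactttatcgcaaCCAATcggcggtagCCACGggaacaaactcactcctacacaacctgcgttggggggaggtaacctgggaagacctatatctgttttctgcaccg
Herpud1: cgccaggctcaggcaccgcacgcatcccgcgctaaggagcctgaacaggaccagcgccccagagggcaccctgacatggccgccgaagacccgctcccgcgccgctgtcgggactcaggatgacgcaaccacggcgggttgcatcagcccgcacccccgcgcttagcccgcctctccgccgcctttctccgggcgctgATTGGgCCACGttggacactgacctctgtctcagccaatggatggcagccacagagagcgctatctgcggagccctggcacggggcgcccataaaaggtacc
Pdia6: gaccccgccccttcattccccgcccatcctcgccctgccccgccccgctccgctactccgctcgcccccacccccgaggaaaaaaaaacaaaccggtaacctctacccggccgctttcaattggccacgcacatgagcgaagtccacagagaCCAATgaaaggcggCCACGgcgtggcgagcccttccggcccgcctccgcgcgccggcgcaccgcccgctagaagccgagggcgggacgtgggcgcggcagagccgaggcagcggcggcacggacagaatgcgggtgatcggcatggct

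The ER stress element, CCAAT followed after 9 bases by CCACG and searched on both strands, was in 9 of the 28 member windows (32.1%). It was in 39 of all 32851 windows of the table (0.119%). Those 9 members were Hspa5, Hsp90b1, Calr, Canx, Dnajc3, Creld2, Pdia6, Syvn1 and Derl3, and Hsp90b1 held 2 copies. The element's first base lay 65 bases before the start in Hspa5 (position -65), at -44 in Syvn1 and at -98 in Pdia6. In Creld2, where it lies on the other strand, -126 is the first marked base of the window shown, the C of CGTGG. Its second form, ATTGG followed after 1 base by CCACG, was in 2 member windows (7.14%), those of Dnajb11 and Herpud1, and in 12 windows overall (0.0365%). TGACGTGG, the unfolded protein response element, was in 0 member windows and in 222 of all windows (0.676%). CCACG alone was in 82.1% of the member windows against 32.8% of all, and CCAAT alone in 78.6% against 37.4%. These searches overlap, since both forms contain CCACG and TGACGTGG contains its reverse complement. The reverse complement of CCAAT, in turn, begins the second form. The ER stress element was first described in promoters of genes of this kind, so its share among the members is a description of the set.

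Values below are CPM, the reads of a gene relative to all reads of its library, after scaling by edgeR's TMM factors (TMM-scaled CPM), and a fold change is a difference on the log2(value + 1) scale, which understates changes of low genes. The limma test was run across 12008 genes, and a gene was called at a Benjamini-Hochberg adjusted p under 0.05. Libraries held 15024945 to 17101844 reads, and every MOCA library was shallower than every control library. All 8 hepatocyte markers were listed, with summed levels of 89346 to 105404 in controls and 79771 to 92593 in MOCA mice. Markers of cells with large secretory loads were low: 3 of 11 pancreatic acinar markers were listed, summing to at most 12.2, and the 2 of 9 plasma and B cell markers listed were Sdc1, which hepatocytes also make, and Jchain. The summed level of the 7 erythroid markers was 345 to 636 in controls and 665 to 751 in MOCA mice, without overlap, and that of the 8 sinusoidal endothelial markers was 496 to 570.2 against 484 to 498; their part in the results was not tested. In bulk liver RNA, fewer cells of a type and less RNA per cell cannot be told apart. Within a group the labels tell the mice apart by a number only, so p-values set the group difference against the spread between livers within each group. The ages, not tied to single mice, could not be taken into account.

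Most ER chaperone and folding genes had higher mean levels in MOCA livers, by modest amounts, and none of the 33 tested members passed the test in either direction. The log2 fold change was above 0 for 29 members and below 0 for 4 (Herpud1, Atf6, Ern1 and Ssr2, where Atf6 and Ssr2 were above 0 with libraries scaled to equal totals), with a median of 0.24 against 0.0051 for all tested genes. Of all tested genes, limma called 0.4% higher and 0.266% lower. At an unadjusted p under 0.05, 13 members were higher and 0 were lower, beside 9.42% of all tested genes higher and 8.05% lower. That count of 13 varied with single mice: it was 8 and 4 without control replicate 1 or 3, and 8, 6 and 21 without MOCA replicate 2, 3 or 4. The edgeR quasi-likelihood test also called 0 members (0.683% of all genes called), while DESeq2 called 2, Pdia6 and Ssr1 (3.54% of all genes called). In 4 members every MOCA mouse was above every control mouse: Hsp90b1, Canx, Pdia6 and Ssr1. Such separation was found in 5.5% of all tested genes.

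MOCA replicate 3 stood above the other MOCA mice for most of these genes. It had the highest level of all 8 mice in 25 of the 33 tested members, where 13.4% of all tested genes had their highest value in this mouse. Among the 4 MOCA mice it was highest in 27 members, beside 25.7% of all tested genes. It exceeded the mean of the other 3 MOCA mice by at least 0.5 on the log2 scale in 11 members, beside 1.84% of all tested genes. The mouse was singled out with its values known, so these counts are given with no test. Ranked by that log2 difference, the top 20 of 12008 genes held 4 members (Creld2, Sdf2l1, Manf and Syvn1), the top 50 held 8 and the top 100 held 11. The median difference was 0.34 over the members and -0.0022 over all tested genes.

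**Figure D1:**
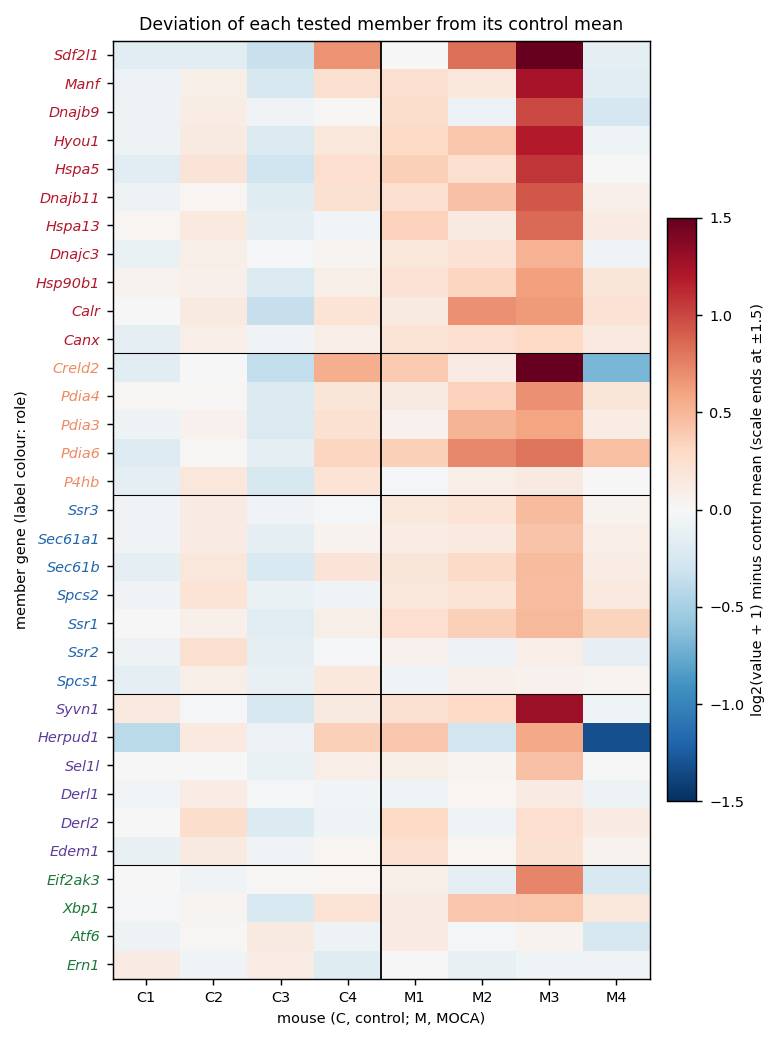
Deviation of each tested member (vertical axis, grouped and coloured by role) from its control mean, on the log2(value + 1) scale, in each mouse (horizontal axis, C1 to C4 control and M1 to M4 MOCA). The column of MOCA replicate 3 is the darkest, with chaperones, Creld2 and Syvn1 highest and Ern1 and Atf6 near the control mean.

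Averaged over the 33 members, the log2 deviation from the control mean was -0.07, 0.08, -0.15 and 0.13 in control replicates 1 to 4. In MOCA replicates 1 to 4 it was 0.18, 0.21, 0.62 and -0.02. The deviation of MOCA replicate 3 was the highest of the 8, and that of MOCA replicate 4 lay within the control range. Control replicate 4 was the highest control in 20 members, control replicate 3 the lowest control in 21, and MOCA replicate 4 the lowest MOCA mouse in 22. Among all 12008 tested genes, these mice held those places in 2576, 3205 and 3704. Without MOCA replicate 3, 25 members had a log2 fold change above 0, the median was 0.14, and 6 were higher at an unadjusted p under 0.05, beside 8.64% of all tested genes; limma called 0. Read depth (15324043), the share of the ribosomal RNA precursor Rn45s (3.94%), the share of Alb (6.06%) and the number of genes above 0 (14876) in MOCA replicate 3 lay within the range of the other 7 libraries.

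Hspa5 (BiP), the ER Hsp70 chaperone that also holds the stress sensors inactive, was at 513, 653, 464 and 681 in control replicates 1 to 4 and at 731, 675, 1205 and 570.4 in MOCA replicates 1 to 4. The level in MOCA replicate 3 stood 1.83-fold above the mean of the other 3 MOCA mice (659 ± 81.7, SD), and the range of those 3 overlapped that of the controls. Its log2 fold change was 0.42 (SE 0.20, 95% interval -0.03 to 0.87; limma adjusted p = 0.317), and 0.20 without MOCA replicate 3 (adjusted p = 0.523). Hsp90b1 (GRP94, chromosome 10, 86690841 to 86705444), the ER form of Hsp90, was at 622, 629, 513 and 635 in controls and at 693, 750.2, 918 and 679 in MOCA mice. Its groups did not overlap, with a log2 fold change of 0.34 (SE 0.11, limma adjusted p = 0.165). Hyou1 (GRP170), a nucleotide exchange factor of Hspa5, was at 184, 215, 167 and 219 in controls and at 240.5, 261, 446 and 187 in MOCA mice. MOCA replicate 3 was the highest mouse for this gene, followed by MOCA replicate 2 at 261, and MOCA replicate 4 lay among the controls. The log2 fold change of Hyou1 was 0.46 (SE 0.21, limma adjusted p = 0.288).

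The lectin chaperones, which hold newly made glycoproteins, were less uneven. Calr, the soluble one, was at 459.7, 499, 359 and 524 in controls and at 501.9, 735, 713 and 530.1 in MOCA mice, where replicates 2 and 3 were both high (log2 fold change 0.42, limma adjusted p = 0.187). Canx, its membrane-bound relative, was at 444, 521, 468 and 522 in controls and at 561, 582, 599 and 542 in MOCA mice. The Canx groups did not overlap, MOCA replicate 3 exceeded the other MOCA mice by only 0.09 on the log2 scale, and the log2 fold change was 0.23 (SE 0.08, limma adjusted p = 0.178).

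Among the chaperones and co-factors, Sdf2l1, Manf and Dnajb9 had the widest gaps on the log2 scale between MOCA replicate 3 and the other MOCA mice. Sdf2l1 (chromosome 16, 17130138 to 17132383), a partner of the ER Hsp40 proteins, was at 10.5, 10.5, 9.32 and 19.7 in controls and at 11.9, 22.05, 38.0 and 10.8 in MOCA mice. MOCA replicate 3 was 2.55-fold above the other 3 MOCA mice, while MOCA replicates 1 and 4 lay among the controls. Manf (chromosome 9, 106888753 to 106891938), an Hspa5-binding protein that is also secreted, was at 56.2, 63.9, 50.7 and 70.8 in controls and at 70.7, 66.7, 142 and 53.8 in MOCA mice. Here the other 3 MOCA mice all lay within the control range and MOCA replicate 3 was 2.23-fold above their mean. Dnajb9, an Hsp40 protein that loads Hspa5 onto Ern1, was at 92.9, 105, 94.0 and 98.6 in controls and at 117, 92.1, 194 and 81.6 in MOCA mice, 2.01-fold higher in MOCA replicate 3 than in the other 3. Its log2 fold change of 0.23 (limma adjusted p = 0.619) became -0.03 without that mouse. Dnajb11, another Hsp40 co-chaperone, and Hspa13, an Hsp70-like protein, stood 0.68 and 0.65 above the other MOCA mice on the log2 scale, and Dnajc3, which inhibits PERK and acts as a co-chaperone, 0.41. Log2 fold changes of these 3 were 0.42, 0.36 and 0.21 (limma adjusted p = 0.211, 0.234 and 0.335).

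**Figure D2:**
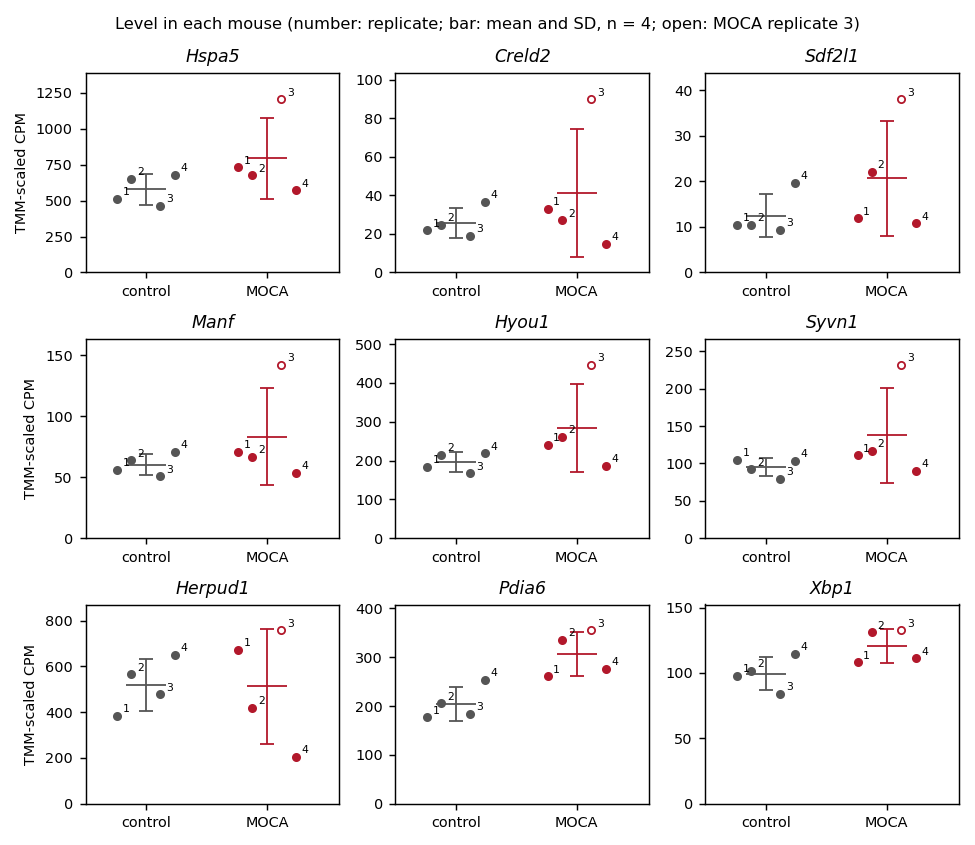
TMM-scaled CPM (vertical axes, from 0) of 9 members in control and MOCA mice; each point is a mouse with its replicate number, bars give mean and SD (n = 4), and the open point is MOCA replicate 3. Creld2, Sdf2l1, Manf, Hyou1, Syvn1 and Hspa5 show 1 point far above the rest, Herpud1 spreads widely in MOCA mice from 204 to 757, and Pdia6 shows separated groups.

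Protein disulfide isomerases make and rearrange the disulfide bonds of secreted proteins. Pdia6 was the member with the smallest p. It was at 177, 206, 184 and 253 in controls and at 261, 336, 355 and 277 in MOCA mice, so each MOCA mouse was above each control mouse. Mean levels were 205 ± 34.5 and 307 ± 45.1 (SD, n = 4 each), with a log2 fold change of 0.58 (SE 0.13, 95% interval 0.30 to 0.86; limma adjusted p = 0.0632, edgeR 0.067, DESeq2 0.00201). MOCA replicate 3 did not stand apart for Pdia6 (0.29 above the other MOCA mice on the log2 scale), and without it the log2 fold change was 0.51 (limma adjusted p = 0.118). Pdia4 was at 214, 214, 183 and 240.4 in controls and at 233, 269, 342 and 241 in MOCA mice. Pdia3, the isomerase that works with Calr and Canx on glycoproteins, was at 274, 301, 248 and 337 in controls and at 302, 409, 434 and 311 in MOCA mice. For both, MOCA replicate 3 was the highest of the 8 mice and the groups overlapped, with log2 fold changes of 0.34 and 0.32 (limma adjusted p = 0.197 and 0.25). P4hb (PDI itself) ranged from 836 to 1139.9 in controls and from 967 to 1082 in MOCA mice, a log2 fold change of 0.05 (95% interval -0.19 to 0.29).

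Creld2, an ER protein with disulfide isomerase activity that is a known target of ATF6, had the largest log2 difference between MOCA replicate 3 and the other MOCA mice of all members. It was at 21.9, 24.7, 18.9 and 36.5 in controls and at 32.9, 27.1, 89.9 and 15.0 in MOCA mice. MOCA replicate 3 was 3.60-fold above the other 3 MOCA mice, and MOCA replicate 4 was the lowest of all 8 mice. Its log2 difference of 1.88 ranked 3 among 12008 tested genes. The group comparison gave a log2 fold change of 0.41 (SE 0.41, limma adjusted p = 0.645), which was -0.06 without MOCA replicate 3.

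The translocation genes encode the Sec61 channel (Sec61a1, Sec61b), the channel's translocon-associated partner proteins (Ssr1, Ssr2, Ssr3) and signal peptidase subunits (Spcs1, Spcs2). Ssr1 (chromosome 13, 37971401 to 37994208) was at 105, 112, 93.9 and 112 in controls and at 125, 136, 148 and 133 in MOCA mice. Its groups did not overlap in any mouse, and means were 106 ± 8.55 and 135 ± 9.26 (SD, n = 4 each). The log2 fold change was 0.36 (SE 0.08; limma adjusted p = 0.0657, edgeR 0.0655, DESeq2 0.00605), and 0.31 without MOCA replicate 3 (limma adjusted p = 0.131). Sec61a1, the channel's pore subunit, was at 189.6, 214, 179 and 203 in controls and at 212, 217, 264 and 210.2 in MOCA mice, with 3 MOCA mice close together and replicate 3 above them. Spcs2 was at 47.3, 56.5, 45.8 and 47.2 in controls and at 55.2, 56.5, 67.7 and 54.5 in MOCA mice, and Ssr3 at 199, 226, 200.3 and 204 against 231, 238, 289 and 216. Sec61b was at 24.7, 30.5, 22.9 and 31.2 in controls and at 30.8, 33.3, 38.2 and 29.4 in MOCA mice. In each of these 4 genes MOCA replicate 3 was the highest of 8 by a modest margin, 0.29 to 0.34 above the other MOCA mice on the log2 scale, and group fold changes were 0.20 to 0.26 (limma adjusted p from 0.214 to 0.289). Ssr2 and Spcs1 had log2 fold changes of -0.01 and 0.03, with 95% intervals of -0.21 to 0.19 and -0.15 to 0.22.

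Degradation genes differed: some stood out in MOCA replicate 3, Herpud1 spread widely among MOCA mice, and others varied little. Syvn1 (HRD1), the ubiquitin ligase of ER-associated degradation, was at 105, 92.2, 79.5 and 104 in controls and at 111, 117, 232 and 90.4 in MOCA mice. MOCA replicate 3 was 2.19-fold above the other 3 MOCA mice, and the log2 fold change was 0.44 (SE 0.23, limma adjusted p = 0.35). Sel1l, the partner of Syvn1 in the same complex, was at 232, 231, 216 and 248 in controls and at 246, 238, 314 and 232 in MOCA mice, with replicate 3 alone above the control range. Herpud1, a stress-induced scaffold of that complex, was at 384, 565, 478 and 651 in controls and at 673, 419, 757 and 204 in MOCA mice. It had both the highest and the lowest of its 8 values among MOCA mice, in replicates 3 and 4, and its log2 fold change was -0.16 (SE 0.34, limma adjusted p = 0.852). Without MOCA replicate 4 that value was 0.23, and without MOCA replicate 3 it was -0.40.

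Edem1, a lectin that directs misfolded glycoproteins to degradation, was at 269, 319, 281 and 298 in controls and at 345, 297, 341 and 301 in MOCA mice, which overlapped (log2 fold change 0.14, limma adjusted p = 0.406). Derl1 and Derl2, membrane proteins of the degradation channel, had log2 fold changes of 0.01 and 0.15. Derl3, their relative that is abundant in secretory cells such as those of the pancreas, was low and untested, at 0.349, 0.322, 0.247 and 0.78 in controls and at 0.445, 0.516, 2.59 and 0.244 in MOCA mice. Its value in MOCA replicate 3 was 6.45-fold that of the other 3 MOCA mice, and the other 7 mice were all below 1. Of 11 pancreatic acinar markers 3 were listed, summing to 9.14 in MOCA replicate 3 and to 6.74 to 12.2 in controls, and most of that sum was Cela1 (8.42 in MOCA replicate 3). The acinar marker Amy2a5 was highest in MOCA replicate 3, at 0.259, and at most 0.129 in the other 7 livers. A single read in MOCA replicate 3 equalled 0.0648, so this value rested on few reads. The other listed markers were not highest there. Cela2a, at 0.454 in MOCA replicate 3, was at 0.509 in MOCA replicate 1 and 0.494 in control replicate 3. Cela1 was at 9.21 and 11.8 in control replicates 2 and 4. The part of such cells in the Derl3 value was not tested.

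Among the sensors, the mRNA of Eif2ak3 alone stood out in MOCA replicate 3. Eif2ak3 (PERK) was at 32.8, 31.2, 32.8 and 33.2 in controls and at 34.7, 29.4, 54.6 and 27.7 in MOCA mice. Controls spanned a narrow range, MOCA replicate 3 was 1.78-fold above the other 3 MOCA mice, and the log2 fold change of 0.11 (limma adjusted p = 0.774) became -0.09 without that mouse. Xbp1 was at 97.8, 102, 84.3 and 115 in controls and at 108, 131, 132 and 111 in MOCA mice, where replicates 2 and 3 had nearly the same level. Its log2 fold change was 0.28 (SE 0.10, limma adjusted p = 0.206), and the table's gene level does not separate spliced from unspliced Xbp1 mRNA. Atf6 was at 83.8, 89.5, 97.3 and 83.7 in controls and at 96.5, 86.6, 91.7 and 74.7 in MOCA mice. Ern1 (IRE1) was at 105, 93.6, 105 and 85.3 in controls and at 96.7, 89.7, 92.5 and 93.5 in MOCA mice. Both overlapped between groups, with log2 fold changes of -0.02 and -0.06 and 95% intervals of -0.22 to 0.17 and -0.23 to 0.11.

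**Figure D3:**
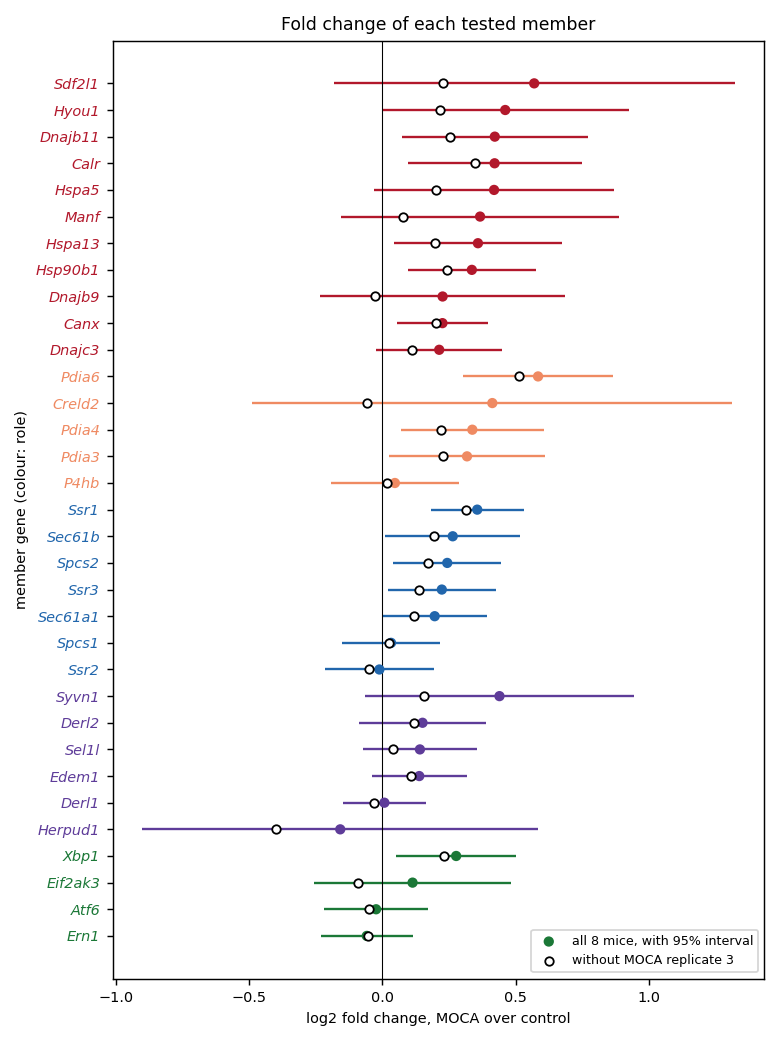
Log2 fold change of MOCA over control (horizontal axis) for each tested member (vertical axis, coloured by role), as a filled point with its 95% interval for all 8 mice and an open point without MOCA replicate 3. Open points lie to the left of filled ones for every member except Ern1, with the widest gap for Creld2. Pdia6, at 0.58 and 0.51, lies farthest to the right of both kinds of point among members whose interval is above 0.

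By role, the median log2 fold change was 0.37 for the 11 chaperones, 0.34 for the 5 disulfide isomerase genes, 0.22 for the 7 translocation genes, 0.14 for the 6 tested degradation genes and 0.045 for the 4 sensor genes. The median log2 difference of MOCA replicate 3 from the other MOCA mice followed the same order, at 0.68, 0.36, 0.29, 0.28 and 0.14. At an unadjusted p under 0.05, 5 chaperones, 3 isomerases, 4 translocation genes, 0 degradation genes and 1 sensor gene (Xbp1) were higher, beside 9.42% of all tested genes. Chaperones stood at 0.90 above the control mean in MOCA replicate 3, on the averaged log2 scale, and sensors at 0.28. Members whose promoter window held the ER stress element had a median difference of 0.41 between MOCA replicate 3 and the other MOCA mice (9 genes, 0.09 to 1.88). Members with a window lacking it had a median of 0.31 (18 genes, -0.01 to 1.36), and the ranges overlapped, with the large differences of Sdf2l1, Dnajb9 and Herpud1 among them. Herpud1 and Dnajb11, counted among these 18, held the element's second form. The 9 included the untested, low Derl3 (1.36).

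**Figure D4:**
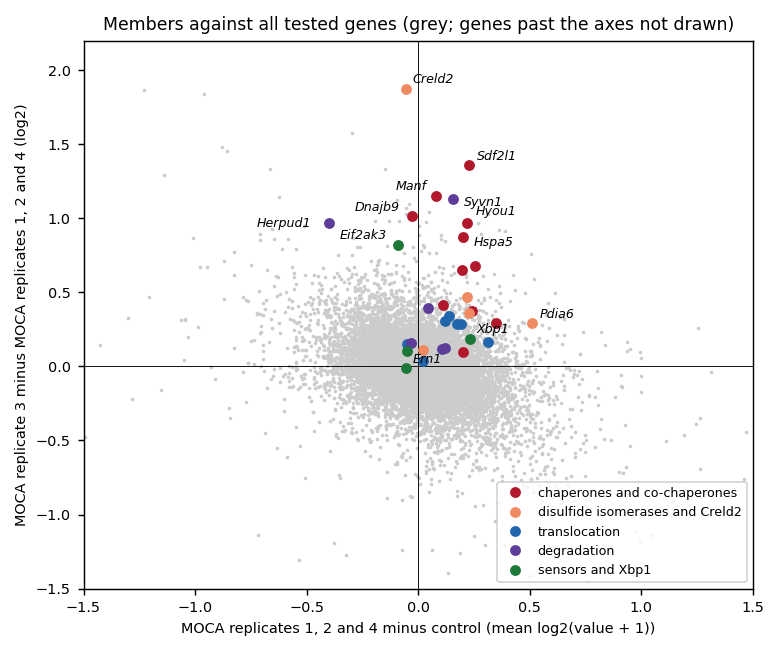
Each tested member (coloured by role) and all other tested genes (grey), with the log2 difference between MOCA replicates 1, 2 and 4 and the controls on the horizontal axis and that between MOCA replicate 3 and MOCA replicates 1, 2 and 4 on the vertical axis; both axes use those 3 mice. Creld2 at 1.88 and Sdf2l1 at 1.36 sit at the upper edge of the grey cloud, and Pdia6 lies to the right with a difference of 0.29.

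Per kilobase of merged exon (GENCODE lengths), mean control levels in TMM-scaled CPM per kb were highest for P4hb (348 ± 53.3) and Herpud1 (266 ± 58.8), followed by Hsp90b1 (212 ± 20.5), Calr (211 ± 33.3) and Hspa5 (154 ± 28.2). Neighbours in the order Herpud1, Hsp90b1 and Calr differed by less than the larger of their SDs. The lowest levels per kb were those of Derl3 (0.321) and Eif2ak3 (6.72), then Hspa13 and Ssr1 (10.3 each). In MOCA replicate 3, Hspa5 was at 321 per kb, close to Hsp90b1 (325) and Calr (326) in the same mouse.

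Beyond the members, 8 lists of related genes gave 6 calls by limma, 5 higher and 1 lower, beside 0.4% and 0.266% of all tested genes. Counts in these lists at an unadjusted p under 0.05 stand against 9.42% higher and 8.05% lower over all tested genes, and counts of genes highest in MOCA replicate 3 against 13.4%. Among 26 other ER folding and oxidation genes 1 was called: Dnajb2, a J-domain co-chaperone, rose from 42.8 ± 3.30 to 56.9 ± 3.88 (log2 fold change 0.40, limma adjusted p = 0.0469), and the call was lost when any of the 8 mice was left out. The next smallest p in that list belonged to the prolyl isomerases Fkbp11 (0.47, adjusted p = 0.142) and Fkbp7 (0.39, adjusted p = 0.181), both of which were low, with group means under 3 TMM-scaled CPM. Ero1lb, an oxidase that recharges disulfide isomerases, was at 118 in MOCA replicate 3 against 68.8 in the other MOCA mice (control mean 65.2), and the thioredoxin-domain gene Txndc11 at 47.0 against 31.3 (control mean 31.6). MOCA replicate 3 was the highest of 8 in 11 of the 26, beside 13.4% of all tested genes.

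Among 32 other translocation and glycosylation genes 2 rose: Magt1, an oligosaccharyltransferase subunit (log2 fold change 0.43, limma adjusted p = 0.0328), and Srp54a, of the signal recognition particle (0.50, adjusted p = 0.048). Srp54a has near-identical paralogs, so its reads could be split and its value is uncertain. The Magt1 call held in 1 of the 8 tests that left out a mouse and that of Srp54a in 0. Spcs3, the signal peptidase subunit that works with Spcs1 and Spcs2, had a log2 fold change of 0.35 (limma adjusted p = 0.0831). In MOCA replicate 3, Srprb, of the signal recognition particle receptor, was at 31.9 against 19.4 in the other MOCA mice (control mean 21.4) and Srp68 at 61.3 against 45.0 (control mean 40.9). That mouse was the highest of 8 in 19 of these 32 genes, beside 13.4% of all tested genes. Of the 30 tested ER to Golgi transport genes 1 was called, Bet1, a SNARE protein of these vesicles (24.2 ± 1.46 to 36.0 ± 4.25, log2 fold change 0.55, limma adjusted p = 0.027), and the call held in 3 of the 8 tests that left out a mouse. Lman1, a cargo receptor, and Sar1b, a GTPase of the COPII coat, followed at 0.27 and 0.35 (limma adjusted p = 0.112 and 0.119). MOCA replicate 3 was the highest of 8 in 21 of these 30, beside 13.4% of all tested genes. Sec23b, a COPII coat subunit, was at 73.9 there against 40.8 in the other MOCA mice (control mean 37.5) and Arfgap3 at 14.8 against 7.54 (control mean 6.98).

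The other branches and degradation genes gave 0 calls by limma and by edgeR. Of 24 other ER-associated degradation genes, 1 was higher and 2 lower at an unadjusted p under 0.05, beside 9.42% and 8.05% of all tested genes, and DESeq2 called 2, beside 3.54%. Os9, a lectin of that pathway, and Ubxn4 had log2 fold changes of -0.30 and 0.44 (limma adjusted p = 0.0831 and 0.0835), and Ube2j2 -0.21. In MOCA replicate 3, Vimp was at 47.8 against 34.4 in the other MOCA mice (control mean 38.4) and Edem3 at 99.9 against 74.6 (control mean 79.5). Of 22 PERK branch and integrated stress response genes, 4 were higher and 4 lower at that level, DESeq2 called 0, and the median log2 fold change was -0.03. Atf4, the branch's main transcription factor, was at 70.8 ± 6.70 in controls and 58.8 ± 6.57 in MOCA mice (limma adjusted p = 0.181), while Slc7a11 and Wars had log2 fold changes of 0.42 and 0.30 (adjusted p = 0.155 and 0.209). Vldlr was at 12.8 in MOCA replicate 3 against 24.3 in the other MOCA mice (control mean 23.6), and Fgf21 at 10.4 against 7.10 (control mean 8.84). Of 22 partners of IRE1 and ATF6, 4 were higher and 1 lower at that level and DESeq2 called 1. Their smallest p-values belonged to the apoptosis genes Bax and Bbc3, which are also known p53 targets, at 0.37 and 0.74 (limma adjusted p = 0.122 and 0.154), and to Mbtps1, the protease that cuts ATF6, at -0.16. Bbc3 was at 3.63 in MOCA replicate 3, at 6.89 in the other MOCA mice and at 3.09 in controls, and Creb3l2 at 60.0, 39.7 and 36.7. MOCA replicate 3 was the highest of 8 in 7 of the 24 degradation genes, beside 13.4% of all tested genes. It was so in 6 of the 22 PERK branch genes and 4 of the 22 partners.

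Cytosolic heat shock genes also stood high in MOCA replicate 3, which was the highest of 8 in 14 of 19, beside 13.4% of all tested genes. Hspa4l, a cytosolic Hsp110-type chaperone, rose from 27.1 ± 1.69 to 44.0 ± 8.33 (log2 fold change 0.66, limma adjusted p = 0.0328), a call that held in 2 of the 8 tests that left out a mouse. Hspe1 and Stip1 each had a log2 fold change of 0.39 (limma adjusted p = 0.0976 and 0.114). The inducible Hsp70 genes Hspa1a and Hspa1b, near-identical paralogs whose reads could be split, were at 77.8 and 131 in MOCA replicate 3 against 29.4 and 49.0 in the other MOCA mice. Control means, 51.9 and 87.1, lay between these. The gap held low values in MOCA replicates 2 and 4 (20.2 and 23.8 for Hspa1a, 33.5 and 39.6 for Hspa1b) as well as high ones in replicate 3. MOCA replicate 1, at 44.1 and 73.9, lay within the control ranges. Averaged over this list, the log2 deviation from the control mean was 0.32, -0.05, 0.52 and -0.18 in MOCA replicates 1 to 4. Of 24 genes for secreted proteins of hepatocytes, by contrast, 10 were lower and 0 higher at an unadjusted p under 0.05, beside 8.05% and 9.42% of all tested genes, and MOCA replicate 3 was the highest of 8 in 0, beside 13.4%. Itih3, an inter-alpha-trypsin inhibitor chain, fell from 958 ± 30.1 to 603 ± 61.5 (log2 fold change -0.67, limma adjusted p = 0.00778) and was called in all 8 tests that left out a mouse. C3 and Itih4 had log2 fold changes of -0.54 and -0.39 (limma adjusted p = 0.0726 and 0.111, edgeR 0.0300 and 0.0940, DESeq2 3.69e-10 and 0.00375). Of these 24 genes edgeR called 2 and DESeq2 11, beside 0.683% and 3.54% of all tested genes. Serpina3k and Serpina1c, each of a family of close paralogs, were at 10441 and 4962 in MOCA replicate 3 against 6571 and 3661 in the other MOCA mice, with control means of 7643 and 5427.

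**Figure D5:**
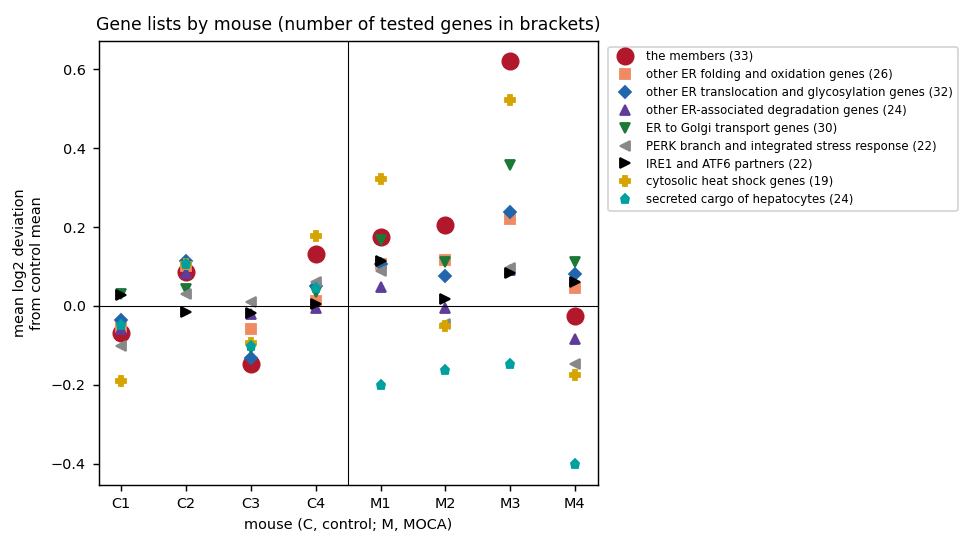
Mean log2 deviation from the control mean (vertical axis) in each mouse (horizontal axis, C control and M MOCA) for the members and for 8 related lists, with the number of tested genes in brackets. The members reach 0.62 in MOCA replicate 3, next to cytosolic heat shock genes at 0.52, while secreted cargo genes lie below 0 in all 4 MOCA mice.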

How the data were processed

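Per the labels' protocols, liver RNA was purified with an RNeasy kit, and directional MGIEasy libraries were built from 200 ng after ribosomal RNA depletion. The submitters' processing notes name Bowtie2, RSEM, Trimmomatic 0.38, edgeR and the build mm10; the sources used here give no role, order or strand setting. The strain label names F1-TKm30 mice and the treatment label C57BL mice; the former is used. The authors deposited a signal per gene and mouse (normalised counts). In each column 100% of them were a whole number of reads times 1 constant (0.0581 to 0.0648) within 0.001, and they equalled TMM-scaled CPM recomputed from the recovered reads (largest relative difference 1.55e-15). Number of columns not used: 0.

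The test covered 12008 genes that reached 1 in at least 4 libraries (3202 were left out). It used limma 3.58.1 (R 4.3.3) with a trended eBayes on log2(value + 1), MOCA against control, two-sided, no covariate, and calls at an adjusted p under 0.05. Recovered reads were tested with edgeR 4.0.16 (quasi-likelihood) and DESeq2 1.42.0 as alternatives; their repeats without MOCA replicate 3 were chosen after seeing the data. Further alternatives left out each mouse, added a replicate block or sample weights, dropped the trend or made eBayes robust, rescaled the columns in 3 ways, changed the filter in 2 ways, and used pseudocounts of 0.25 and 4. Same-numbered mice of both groups shared only a number. The limma test was tested on simulated data. Promoters come from RefSeq, matched by symbol. Protein sequences were not used here.

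The members and lists were chosen with earlier results of these data known. Values by mouse are given for the 3 members of each role with the largest difference of MOCA replicate 3 and the 2 with the smallest p, all sensors and members called by any tool, and beside that rule for Hspa5, Hyou1, Calr and the untested Derl3. Of each related list the 3 genes with the smallest p and the 2 with the largest difference are named.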

Additional observations from a re-analysis of the deposited data

Results flagged for a closer look

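In groups of 4 mice, the gap between the highest or lowest value and its nearest neighbour was set against the group's whole range, and a value was picked where the ratio passed Dixon's 95% critical value. Chance picks about 5% of such groups, and 8 of 70 were picked here, 4 in MOCA replicate 3 and 4 in controls. As MOCA replicate 3 was singled out with its values known, its 4 picks are a description and no test.

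In MOCA replicate 3, Sel1l stood at 314, Sec61a1 at 264, Spcs2 at 67.7 and Derl3 at 2.59 TMM-scaled CPM, each above the other 3 MOCA mice, which lay close together. The margin over their mean was 1.32-fold for Sel1l, 1.24-fold for Sec61a1, 1.22-fold for Spcs2 and 6.45-fold for Derl3. Among controls, Sdf2l1 stood high in replicate 4 at 19.7, Spcs2 in replicate 2 at 56.5 and Derl1 in replicate 2 at 134. Hsp90b1 stood low in control replicate 3 at 513. Creld2, Manf, Syvn1 and Hspa5, at 3.60, 2.23, 2.19 and 1.83-fold in MOCA replicate 3, did not pass the ratio, and MOCA replicate 4 was the lowest of the group in each.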

How the results depend on the processing

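Of the 33 tested members, 24 kept the sign of their fold change in all 21 alternatives. The count of members called by limma was 0 and became 2 with equal column sums and 2 with DESeq2, with or without MOCA replicate 3 (Pdia6 and Ssr1 each time); leaving out 1 mouse gave 0 to 1 (Pdia6, without control replicate 4). Equal column sums moved the median of all genes to 0.053 and that of the members to 0.30. The median log2 difference of MOCA replicate 3 from the other MOCA mice was 0.30 to 0.40 when 1 of those was left out.

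Log2 fold changes changed sign for Atf6 (0.0297 with equal sums, 0.0124 with sample weights, -0.0725 to 0.0494 leaving out a mouse), Ssr2 (0.0417 with equal sums, -0.0574 to 0.0675) and Derl1 (-0.0104 with upper quartile scaling, -0.0324 to 0.0451). Leaving out a mouse alone gave ranges of -0.0328 to 0.116 for P4hb, -0.0272 to 0.387 for Dnajb9, -0.0565 to 0.78 for Creld2, -0.40 to 0.228 for Herpud1, -0.0917 to 0.226 for Eif2ak3 and -0.0146 to 0.087 for Spcs1. Of related genes, Vimp (0.0213 with equal sums, -0.146 to 0.0486), Edem3 (-0.0101 with upper quartile scaling, -0.098 to 0.11) and Serpina3k (0.0478 with equal sums, 0.0655 with weights, -0.19 to 0.182) also did so. The ranges for Txndc11, Srprb, Vldlr and Fgf21 were -0.0087 to 0.205, -0.138 to 0.146, -0.316 to 0.047 and -0.366 to 0.147. The cause was not tested.

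The 6 calls in the related lists became 13 with equal sums, 3 without the trend, 26 with DESeq2 (17 without MOCA replicate 3) and 1 to 4 leaving out a mouse. Of all genes, limma called 80, equal sums 169 and DESeq2 425 (317 without MOCA replicate 3); leaving out a mouse gave 29 to 77.

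Same-numbered control and MOCA mice did not deviate together (correlations -0.07, 0.00, 0.04 and -0.04). With a replicate block, 0 members, 1 related gene and 30 genes in all were called, and 12 members were higher at an unadjusted p under 0.05.

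Precision is limited by the number of mice: the 95% interval of the log2 fold change ran from -0.49 to 1.31 for Creld2 and from -0.18 to 1.32 for Sdf2l1.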

Other observations

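Outside the members, genes of at least 5 TMM-scaled CPM on average were ranked by the log2 difference of MOCA replicate 3 from the other 3 MOCA mice. Mup1, a major urinary protein that carries pheromones, was at 1489, 1757, 1504 and 3509 in controls and at 1014, 904, 3551 and 1062 in MOCA mice, so control replicate 4 and MOCA replicate 3 stood alike. That difference was 1.84 for Mup1 and 1.58 for Mup7, both of a family of near-identical paralogs whose reads could be split. The 10 highest also held Gm14434 (2.85), Serpina4-ps1 (2.67), Hspa1b (1.49), Hspa1a (1.46), Tsku (1.34), Nox4 (1.29), Gm2083 (1.16) and Cyp2d9 (1.14). MOCA replicate 3 was the highest of 8 mice in these 10 except for Nox4 and Serpina4-ps1. Nox4, at 10.4 there, lay within the control range (8.24 to 11.0), and Serpina4-ps1, at 24.4, was below control replicate 1 (38.8). Gm14434, at 31.2 there, ranged from 0 to 27.0 in controls. The 5 lowest were A1bg (-2.37), Tmem254c (-2.20), Cyp3a41b (-2.14), Sult2a1 (-2.13) and Cyp3a16 (-2.07). Cyp3a41b, also with close paralogs, was at 173, 0.58, 4.08 and 39.7 in MOCA replicates 1 to 4 and at most 5.80 in controls, so the low value of MOCA replicate 3 was shared with replicate 2.

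Of the remaining marker lists, the 9 Kupffer cell and macrophage markers summed to 256.5 in MOCA replicate 3 and to 283 to 342 in the other MOCA mice. That value of MOCA replicate 3 lay within the control range. The 7 cholangiocyte markers summed to 55.7 in MOCA replicate 3 against 36.6 to 53.2 in the other MOCA mice. Here MOCA replicates 2 and 3 were both above every control. Spp1 and Sox9 made up most of this sum and were above every control in both mice. The low Krt19, Krt7 and Epcam did not exceed the highest control in either, and Cldn7 and Cftr each did so slightly in 1 of them. The 8 stellate cell markers summed to 508 in MOCA replicate 3 against 407 to 479 in the other MOCA mice. For this sum, MOCA replicate 3 lay within the control range and the other MOCA mice lay below every control. Reln and Dcn made up most of it, and Reln was below every control in all MOCA mice. Some markers went the other way: Lrat in MOCA replicate 2 (31.4) and Col1a1 and Col3a1 in MOCA replicate 4 (7.33 and 40.0) were above every control. The 4 of 8 neutrophil markers listed summed to at most 1.45, and the 1 of 5 adipocyte markers listed to at most 2.28. Their part in the values of MOCA replicate 3 was not tested.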
